A study of Mus musculus with 18 samples.

Results

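Genes that make, activate, receive or restrain transforming growth factor beta (TGF-beta) were followed in mouse regulatory T (Treg) cells: Tgfb1, Furin and Lrrc32 on the production side, the receptors Tgfbr1, Tgfbr2 and Tgfbr3, and the signalling genes Smad3, Smad7, Ski and Skil. These 10 genes were taken by name, with earlier results of these data known, and all 10 were found among the 55487 gene IDs of the deposited tables. Counts of these genes set beside the share of all genes are therefore descriptions, not independent support. Treg cells, T helper cells that carry CD4 and the transcription factor Foxp3, had been sorted fresh from wild-type, untreated mice out of peripheral blood, 3 lymphoid organs (lymph node, spleen, bone marrow), lung and liver. Each of these 6 sites gave 3 libraries of poly(A) RNA, 18 in all. The labels do not give the sorting gate, the way cells were freed from each organ, the strain, age or number of mice, or whether the libraries of a site came from separate animals, so the p-values measure the spread between libraries, which may be technical. Values are TPM, an RNA's share of all transcripts after division by transcript length, so that levels can be compared between genes. TPM keeps no depth, and the depth of the libraries is unknown here.

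TGF-beta is made as a latent precursor. The protease furin cuts the precursor, the cut prodomain stays wrapped around the growth factor, and on Treg cells the surface protein GARP, encoded by Lrrc32, holds this latent complex until integrins release it. Free TGF-beta binds the type II receptor (Tgfbr2), which phosphorylates the type I receptor (Tgfbr1), which in turn phosphorylates Smad2 and Smad3, so that they enter the nucleus with Smad4. Smad7 blocks the type I receptor, and Ski and Skil (SnoN) are co-repressors that bind the Smad complex. In T cells the pathway is known for inducing Foxp3 and the integrin CD103 (Itgae) and for restraining effector programmes.

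The libraries differed in how much RNA of other cells they held. The summed TPM of 6 Treg and T cell genes was lowest in blood, at 802 to 818, and highest in lung, at 2597 to 2674, where Ctla4 alone made up a mean of 1486 TPM. Cd3e was lower in lung than in lymph node, with means of 432 and 691 TPM, and lowest in blood, at 277 TPM. Foxp3 itself lay at 85.4 to 92.2 TPM in blood against 222 to 237 in lung and 236 to 240.3 in lymph node. A list of 12 myeloid genes summed to 26643 to 27411 TPM in blood and 40245 to 40437 in bone marrow, against at most 1723 in the other 4 sites. Platelet genes (7) summed to 2172 to 2203 TPM in blood, 72.2 to 85.6 in bone marrow and at most 21.5 elsewhere, where Tubb1 was listed at 0 in spleen and Treml1 in lymph node. Cytotoxic genes (6) summed to 551 to 609 TPM in blood, mostly Gzma, against at most 123 elsewhere. Lung epithelial genes (6) summed to 223 to 294 TPM in lung, mostly Scgb1a1, which was listed at 0 in blood, lymph node, liver and bone marrow. In the other sites they summed to 8.39 to 19.8 TPM, mostly Ager. Ager went the other way, with a mean of 2.24 TPM in lung and 9.20 to 17.4 elsewhere. Erythroid genes (6) summed to between 10932 and 11969 TPM in liver, 6314 to 6502 in bone marrow, 2826 to 2992 in blood, 1426 to 1983 in spleen and lung, and at most 75.4 in lymph node. Of 6 hepatocyte genes, the sum reached 19.7 TPM at most, in liver. Because TPM is a share of all RNA, each comparison was also made after dividing every library by the geometric mean of 20 T cell genes, which was 184 to 185 TPM in blood, 271 to 275 in bone marrow, 291 to 300.4 in lung, 351 to 360.4 in spleen and liver and 410.4 to 416 in lymph node. This second scale is called T cell scaled below. In bulk samples such as these, fewer Treg cells and less of an RNA per Treg cell cannot be told apart.

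All 10 genes differed among the 6 sites in limma's F test on log2(TPM + 1), with adjusted p-values (Benjamini-Hochberg) between 1.99e-14 for Lrrc32 and 0.00354 for Tgfbr3. Among the 16694 genes tested, 68.0% passed the same test, so differing somewhere was common in these libraries. The size of the differences set the 10 genes apart from each other. The mean in the highest site was 15.6 times that in the lowest for Lrrc32, 4.43 times for Skil, 3.72 for Furin, 3.34 for Smad3, 3.12 for Tgfbr3, 2.66 for Tgfbr1, 2.56 for Smad7, 1.97 for Tgfbr2, 1.91 for Ski and 1.67 for Tgfb1. On TPM, Tgfb1 thus had the narrowest range and Lrrc32, whose product displays the same cytokine, the widest. Tgfb1 was not the steadiest when T cell scaled: its site means then ran from 99.2 in liver to 319.8 in blood, against 53.6 to 109.9 for Ski.

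**Figure D1:**
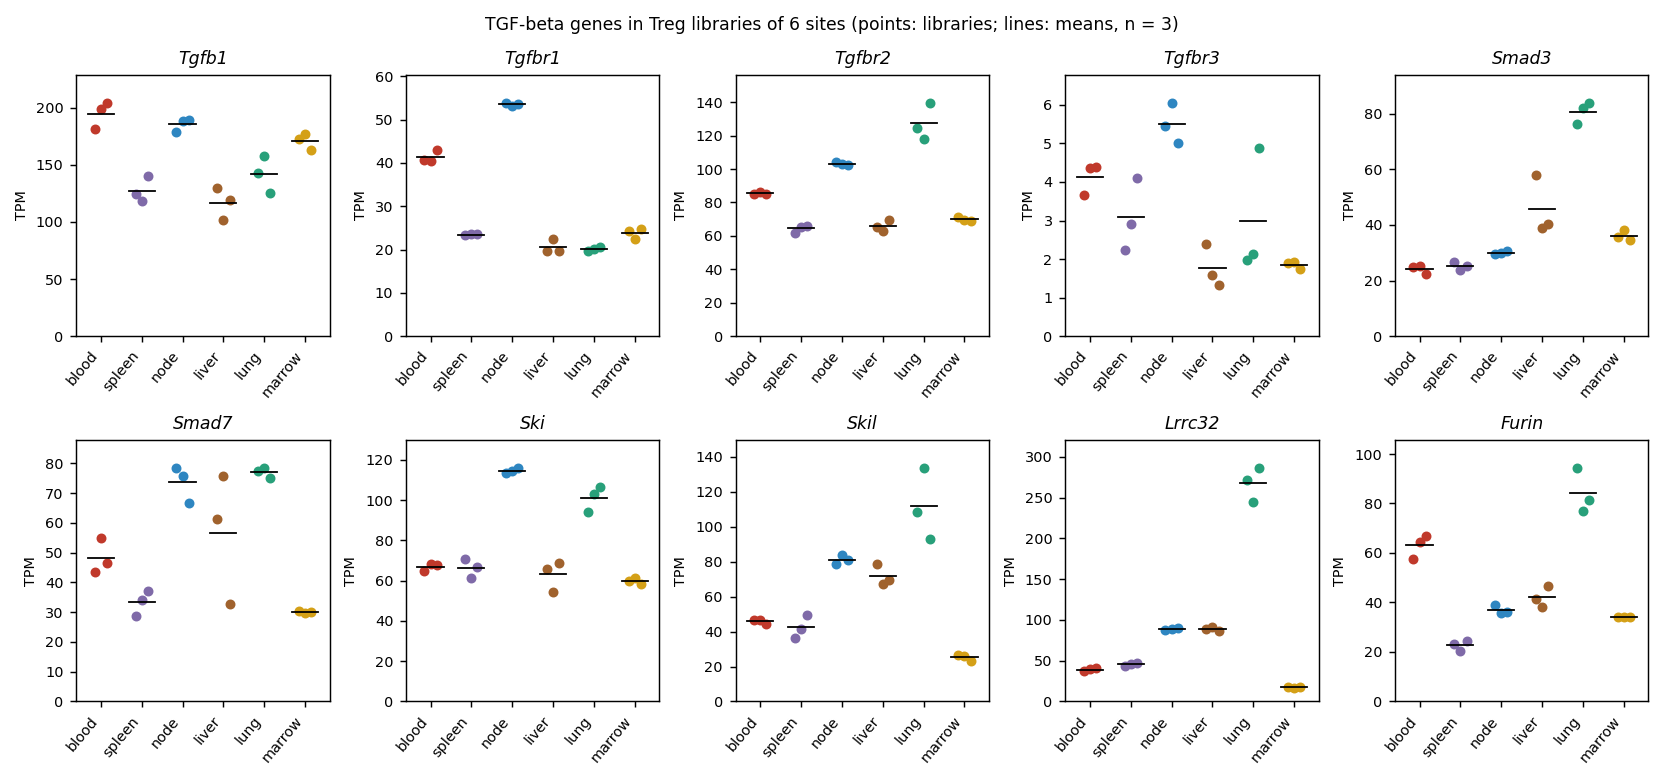
TPM (vertical axes, linear, from 0) of the 10 genes in Treg libraries of 6 sites; each point is a library and each line the mean of 3. Lrrc32 in lung lies between 245 and 287 TPM and in bone marrow between 16.5 and 17.9, while Tgfb1 stays between 102 and 205 TPM in all 18 libraries.

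Tgfb1 (chromosome 7, 25687002 to 25705077, plus strand, GRCm38), the TGF-beta gene of T cells, was abundant at every site, while the means of its relatives Tgfb2 and Tgfb3 were at most 4.26 TPM (in blood) and 3.81 TPM (in lung). It measured 181, 199 and 205 TPM in the 3 blood libraries, 179, 188 and 189 in lymph node and 173, 177 and 163 in bone marrow. Lung gave 143, 157 and 126 TPM, spleen 124, 118 and 140.2, and liver 129.7, 102 and 119. Blood, lymph node and bone marrow thus lay above the other 3 sites with no overlap, and neighbours in this order within each trio did not differ beyond their spread (adjusted p between 0.23 and 0.633). Log2 differences between the trios ran from 0.27 for bone marrow over lung to 0.74 for blood over liver (adjusted p = 0.0332 and 1.36e-05, limma). The call of bone marrow over lung was lost in 4 of the 6 refits that each left out 1 of the 6 libraries concerned. Its adjusted p was up to 0.147 without lung replicate 3. Within the lower trio, lung exceeded liver by 0.28 (adjusted p = 0.0346), a call lost in 3 of 6 such refits. T cell scaled, lymph node minus lung was -0.09.

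Furin (chromosome 7, 80388585 to 80405436, minus strand), the convertase that cuts the TGF-beta precursor among many others, did not follow Tgfb1. Lung held 94.4, 76.8 and 81.4 TPM, blood 57.6, 64.6 and 66.9, and liver 41.5, 38.2 and 46.6. Lymph node gave 38.8, 35.6 and 36.0 TPM, bone marrow 34.2, 34.1 and 34.05, and spleen 23.1, 20.3 and 24.5. Spleen was below all 5 other sites, a pattern that 1.11% of all tested genes had, and lung above all 5, with no library overlapping in either case. Lung against blood turned with the scale: Furin was 0.41 ± 0.10 (SE) higher in lung on the log2 scale (adjusted p = 0.00423), and 0.26 ± 0.11 lower once T cell scaled (adjusted p = 0.0443). Exons of the gene model Gm44851 overlap Furin on the other strand. The libraries were made with a directional kit, but whether strand was used in counting is not given in the sources used here, so the 2 genes' reads cannot be told apart.

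Lrrc32 (chromosome 7, 98489283 to 98502181, plus strand), which encodes the GARP anchor of latent TGF-beta, had the widest range. It reached 272, 245 and 287 TPM in lung, against 88.0, 88.9 and 89.5 in lymph node and 88.9, 91.1 and 86.1 in liver. Spleen gave 43.2, 46.4 and 47.2 TPM, blood 36.8, 39.8 and 40.8, and bone marrow 17.9, 16.5 and 17.2. Lung was above and bone marrow below every library of every other site. Lymph node and liver were level, at 88.8 ± 0.78 and 88.7 ± 2.52 TPM (SD, n = 3; adjusted p = 1). Lung exceeded bone marrow by 3.88 ± 0.07 on the log2 scale (adjusted p = 7.61e-15), and by 3.78 ± 0.08 when T cell scaled, the largest difference of any of the 10 genes between any pair of sites. Blood was only slightly below spleen, by -0.22 ± 0.07 (adjusted p = 0.0314). That call was lost in 4 of 6 refits with 1 library left out, and the sign turned to 0.69 when T cell scaled.

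Among the receptors, the signalling pair moved apart. Tgfbr1 (chromosome 4, 47353222 to 47414931, plus strand), the type I kinase, measured 53.9, 53.1 and 53.7 TPM in lymph node and 40.7, 40.4 and 42.9 in blood. In the other 4 sites it lay between 19.6 and 24.8 TPM, and neighbours in the order bone marrow, spleen, liver, lung did not differ beyond their spread. Lymph node was above each of the other sites on the TPM scale, as in 1.71% of all tested genes, by 1.37 ± 0.08 on the log2 scale against lung (adjusted p = 2.24e-09) and by 0.37 ± 0.08 against blood (adjusted p = 0.00241). T cell scaled, blood was the higher of those last 2 sites, by 0.77 ± 0.08 (adjusted p = 6.95e-07).

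Tgfbr2 (chromosome 9, 116084293 to 116175360, minus strand), the ligand-binding type II kinase, was instead highest in lung, at 125, 118 and 139.8 TPM. Lymph node held 104, 103 and 102 TPM, and blood 85.3, 86.2 and 85.1. Bone marrow (69.0 to 71.4 TPM), liver (62.9 to 69.7) and spleen (61.8 to 66.1) closed the order without differing between neighbours (adjusted p = 0.384 and 0.776). Lung exceeded each other site, by 0.30 ± 0.07 on the log2 scale against lymph node (adjusted p = 0.00212) and up to 0.97 ± 0.07 against spleen (adjusted p = 1.21e-08). Against blood the excess of 0.57 ± 0.07 (adjusted p = 4.34e-06) was -0.11 ± 0.07 when T cell scaled (adjusted p = 0.204).

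Tgfbr3 (chromosome 5, 107106570 to 107289629, minus strand), the co-receptor betaglycan that presents ligand, was scarce throughout. Lymph node held 5.46, 6.06 and 5.02 TPM, blood 3.66, 4.36 and 4.40, and the remaining 12 libraries between 1.32 and 4.87. Values overlapped between several sites, and no neighbours in the order differed (adjusted p between 0.228 and 0.888). In lung a single library at 4.87 TPM stood beside 1.97 and 2.13. Blood exceeded liver by 0.91 ± 0.26 on the log2 scale (adjusted p = 0.0115) and bone marrow by 0.84 ± 0.26 (adjusted p = 0.0218), the latter being lost in 5 of 6 refits with 1 library left out (adjusted p up to 0.0681). Exons of Gm43422 overlap Tgfbr3 on the same strand, and at these levels shared reads could make up part of the value.

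Of the Smads, Smad3 (chromosome 9, 63646767 to 63757994, minus strand), the receptor-activated transcription factor, was highest in lung. Lung gave 76.3, 82.0 and 84.1 TPM, liver 57.8, 38.7 and 40.4, and bone marrow 35.6, 38.2 and 34.7. Lymph node (29.6 to 30.7 TPM), spleen (23.6 to 26.7) and blood (22.4 to 25.3) followed. Every lung library exceeded every other library, and the first liver library stood above the other two. Lung exceeded liver by 0.83 ± 0.12 on the log2 scale (adjusted p = 7.72e-05) and blood by 1.70 ± 0.12 (adjusted p = 1.42e-08), or by 1.10 ± 0.12 and 1.04 ± 0.12 when T cell scaled.

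Smad7, the inhibitory Smad that TGF-beta itself induces in many cells, was high in lung (77.5, 78.4 and 75.3 TPM) and in lymph node (78.5, 75.8 and 66.7) and did not differ between them (adjusted p = 0.849). Blood held 43.4, 55.1 and 46.6 TPM, spleen 28.7, 34.1 and 37.1, and bone marrow 30.4, 29.7 and 30.1. Liver did not give one level: its libraries measured 61.5, 75.8 and 32.8 TPM, 56.7 ± 21.9 (SD, n = 3), a spread that reached from the lymph node to the spleen level. Smad7 in liver against spleen therefore rested on single libraries: the log2 difference of -0.68 (spleen minus liver, adjusted p = 0.0224) lost its call in 3 of 6 refits, with adjusted p = 0.104 without liver replicate 2.

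The co-repressors Ski and Skil bind the same Smads and differed in their order of sites. Ski (chromosome 4, 155154075 to 155222592, minus strand) measured 113, 114 and 116 TPM in lymph node and 94.2, 103 and 106 in lung, against 54.6 to 70.9 TPM in the other 4 sites, whose ranges ran into one another. Skil (chromosome 3, 31095058 to 31122577, plus strand) measured 109, 134 and 93.2 TPM in lung, 78.9, 83.6 and 80.8 in lymph node and 78.4, 67.1 and 69.5 in liver. Blood (46.8, 46.8 and 44.5 TPM) and spleen (36.5, 41.7 and 49.4) overlapped, and bone marrow lay lowest at 26.6, 26.0 and 23.2. For Ski, liver was among the low sites, and for Skil it was 1.47 ± 0.12 above bone marrow on the log2 scale (adjusted p = 1.99e-07), and 1.09 ± 0.12 when T cell scaled.

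Lung was a frequent peak on TPM. Tgfbr2, Smad3, Skil, Lrrc32 and Furin, 5 of the 10, were each higher in lung than in all 5 other sites by limma (adjusted p under 0.05 in every contrast), a pattern that 5.65% of all tested genes had. Counted by site, 7 of the 10 genes differed between lung and spleen, all 7 higher in lung (40.8% of all genes differed in either direction). Lung was higher in 7 against liver (17.3% of all genes), in 7 against bone marrow with 2 lower (13.2% and 30.3%) and in 5 against lymph node with 3 lower (14.9% and 27.4%). T cell scaled, 3 of them kept it (Smad3, Skil and Lrrc32, against 4.31% of all genes), since Tgfbr2 and Furin no longer exceeded blood, and blood was then above all 5 other sites in 4 genes (Tgfb1, Tgfbr1, Tgfbr3 and Furin). Skil rested on 1 library: without lung replicate 2, the highest, lymph node minus lung was -0.31 instead of -0.44 on the log2 scale, with adjusted p = 0.0518. The other 5 genes did not follow. Ski and Smad7 did not pass between lymph node and lung on TPM (adjusted p = 0.107 and 0.849) and were higher in lung when T cell scaled, by 0.30 and 0.54, Tgfb1 was higher in lymph node than in lung by 0.39 on the log2 scale (-0.09 when T cell scaled), and Tgfbr1 had its lowest mean TPM in lung. The lung libraries also held RNA of Scgb1a1, a secretory airway cell gene, at 197 to 264 TPM. The endothelial and stromal list (6 genes) summed to 110.5 to 140.3 TPM in lung and 74.0 to 125 elsewhere, mostly Pecam1. Pecam1 had a mean of 122.6 TPM in lung and 68.5 to 103.4 elsewhere. No other gene of that list had a mean above 1.09 TPM in lung. The part of these RNAs in these differences was not tested.

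**Figure D2:**
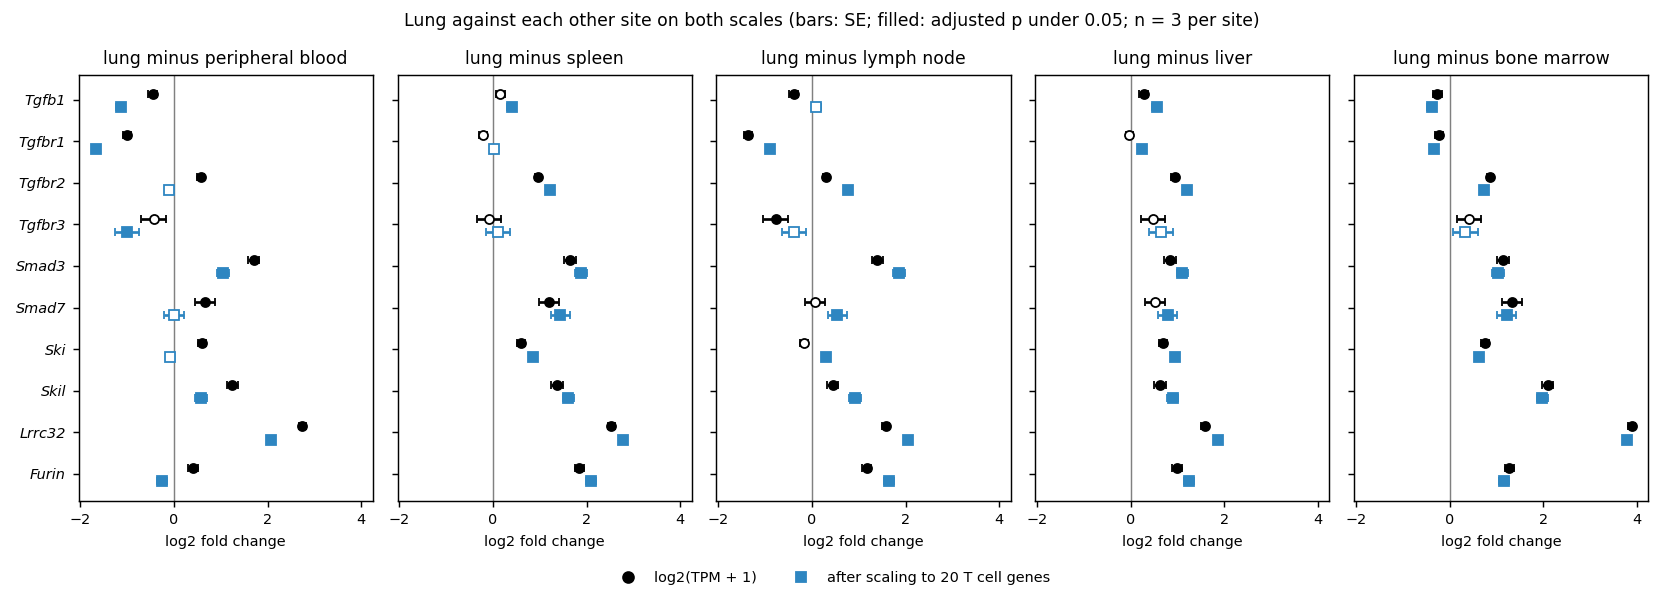
Log2 fold change, lung minus each other site (horizontal axes), for the 10 genes, from TPM (black circles) and after T cell scaling (blue squares); bars are SE, filled symbols passed adjusted p under 0.05, n = 3 per site. Lrrc32 lies furthest right in every panel, from 1.58 against lymph node to 3.88 against bone marrow, and Tgfbr1 lies left of 0 against blood and lymph node on both scales.

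Promoter sequences of 6 of the 10 genes, Tgfb1, Furin, Tgfbr1, Tgfbr2, Smad3 and Ski, were in the RefSeq promoter table (GRCm38.p6), each window running from 250 bases before to 50 bases after a transcription start. The 4 windows of the genes that peaked in lung and have an entry (Furin with 2 starts, Tgfbr2, Smad3) are shown 5′ to 3′ on the gene's strand, in lower case, with capitals marking CAGAC, the core to which Smad3 and Smad4 bind, and TGTTTAC, a forkhead motif of the kind Foxp3 binds, on either strand.
Furin, chr7:80405387-80405686, minus strand: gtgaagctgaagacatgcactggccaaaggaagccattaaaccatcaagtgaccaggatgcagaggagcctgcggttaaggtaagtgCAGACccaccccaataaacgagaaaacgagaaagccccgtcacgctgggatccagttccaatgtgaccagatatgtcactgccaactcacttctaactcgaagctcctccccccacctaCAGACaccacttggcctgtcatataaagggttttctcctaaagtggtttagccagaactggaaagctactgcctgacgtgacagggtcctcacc
Furin, chr7:80402763-80403062, minus strand: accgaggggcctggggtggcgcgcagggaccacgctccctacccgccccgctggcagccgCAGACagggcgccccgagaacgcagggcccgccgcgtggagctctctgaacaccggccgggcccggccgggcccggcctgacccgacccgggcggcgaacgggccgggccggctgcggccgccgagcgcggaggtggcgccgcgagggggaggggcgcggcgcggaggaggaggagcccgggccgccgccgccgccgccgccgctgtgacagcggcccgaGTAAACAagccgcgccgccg
Tgfbr2, chr9:116175314-116175613, minus strand: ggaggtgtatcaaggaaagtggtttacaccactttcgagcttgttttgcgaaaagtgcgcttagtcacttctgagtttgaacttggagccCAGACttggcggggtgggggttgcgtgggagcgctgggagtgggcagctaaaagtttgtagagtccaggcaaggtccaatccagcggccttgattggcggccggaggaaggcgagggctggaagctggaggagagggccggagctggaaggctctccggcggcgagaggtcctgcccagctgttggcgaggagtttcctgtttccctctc
Smad3, chr9:63757945-63758244, minus strand: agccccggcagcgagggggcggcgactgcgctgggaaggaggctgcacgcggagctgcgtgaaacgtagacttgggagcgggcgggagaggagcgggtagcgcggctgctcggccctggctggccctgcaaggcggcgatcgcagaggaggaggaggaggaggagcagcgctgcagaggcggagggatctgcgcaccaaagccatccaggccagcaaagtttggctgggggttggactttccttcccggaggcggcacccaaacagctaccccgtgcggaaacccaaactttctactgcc
The upstream Furin window held 2 CAGAC matches, the downstream one 1 and a forkhead match, Tgfbr2 held 1 CAGAC and Smad3 neither. These are short motifs: CAGAC was found in 49.6% of all 32851 windows of this length and TGTTTAC in 3.65%. The AP-1 motif TGANTCA (7.81% of all windows) and the cAMP response element TGACGTCA (1.79%) were searched on both strands too and had no match in these 4 windows; none of the motifs is part of another. A match is a string of letters in these windows and says nothing of binding in these cells.

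Spleen and lymph node, both secondary lymphoid organs, differed clearly in these genes. Tgfb1, Tgfbr1, Tgfbr2, Smad7, Ski, Skil, Lrrc32 and Furin were lower in spleen, 8 of 10 with none higher, where 14.3% of all tested genes differed in either direction and 9.87% were lower in spleen. The differences ran from -0.54 ± 0.10 on the log2 scale for Tgfb1 (adjusted p = 0.00123) to -1.16 ± 0.08 for Tgfbr1 (adjusted p = 2.16e-07). The median over the 10 genes was -0.74, against -0.11 over all tested genes, and -0.52 against 0.04 when T cell scaled, where 7 of the 10 passed (9.69% of all genes) and Tgfb1 did not (-0.31, adjusted p = 0.0596). Smad3 and Tgfbr3 did not pass the test (-0.25 and -0.70, adjusted p = 0.233 and 0.0963), and were at -0.02 and -0.48 when T cell scaled. B cell genes (5) summed to 448 to 509 TPM in spleen and 126 to 136 in lymph node, and myeloid genes to 612 to 759 and 38.4 to 77.5 TPM; their part in this difference was not tested.

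Bone marrow was the low extreme for Lrrc32 and Skil, the genes with the widest ranges on TPM. Skil and Lrrc32 were lower in bone marrow than in all 5 other sites, a pattern that 0.449% of all genes had, and both kept it when T cell scaled (0.162%). Against spleen, the nearest site for Skil, the difference was 0.72 ± 0.12 on the log2 scale (spleen minus bone marrow, adjusted p = 0.000414), and 0.37 when T cell scaled. Against blood, the nearest site for Lrrc32, it was 1.14 ± 0.07 (blood minus bone marrow, adjusted p = 1.01e-08). Not all of the 10 genes were low there: spleen minus bone marrow was -0.42 ± 0.10 for Tgfb1 (adjusted p = 0.00385) and -0.51 ± 0.12 for Smad3 (adjusted p = 0.00631), so both were higher in bone marrow. Myeloid genes summed to between 40245 and 40437 TPM in the bone marrow libraries, as given above, and their part in these values was not tested. Over the 10 pairs of organs without blood, 67 of 100 combinations of gene and pair passed, against 31.9% of all gene and pair combinations.

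Peripheral blood against the organs is the comparison the study names. On the TPM scale none of the 10 genes was higher or lower in blood than in all 5 organs (7.49% and 3.44% of all genes were), and the direction depended on the organ. The 5 contrasts share the 3 blood libraries. Blood was lower than lung in 7 of the 10 genes, where 17.3% of all genes were lower, and higher in 2, where 26.4% were. Against bone marrow 7 were higher and 1 lower (13.0% and 18.8% of all genes), and against liver 5 were higher and 3 lower (23.3% and 16.1%). Against spleen 4 were higher and 1 lower (20.1% and 15.3%), and against lymph node 1 was higher and 6 were lower (16.4% and 21.0%). The median log2 difference of the 10 genes was -0.58 against lung, -0.35 against lymph node, 0.23 against liver, 0.38 against spleen and 0.72 against bone marrow, with medians over all tested genes of 0.12, -0.15, 0.07, 0 and -0.11 in the same order.

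The genes of TGF-beta production were split in blood. Blood exceeded liver by 0.74 ± 0.10 on the log2 scale for Tgfb1 (adjusted p = 1.36e-05), spleen by 0.61 ± 0.10 (adjusted p = 0.000103) and lung by 0.46 ± 0.10 (adjusted p = 0.00107). Lymph node and bone marrow did not differ from blood in Tgfb1 by this test (adjusted p = 0.633 and 0.165). Furin was higher than in 4 organs, most against spleen (1.44 ± 0.10, adjusted p = 1.62e-08). Lrrc32 was lower than in 4 organs, by up to -2.74 ± 0.07 against lung (adjusted p = 1.45e-13), and higher than in bone marrow by 1.14 ± 0.07. Platelets are rich in TGF-beta, and the sum of their marker genes was highest in blood and next in bone marrow, as given above. The part of platelet or myeloid RNA in the blood values of Tgfb1 and Furin was not tested.

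Of the receptors in blood, Tgfbr1 was higher than in 4 organs, by 0.77 ± 0.08 to 1.00 ± 0.08 on the log2 scale, and lower than in lymph node. Tgfbr2 was higher than in spleen, liver and bone marrow by 0.29 to 0.40 and lower than in lymph node and lung. Of the signalling genes, Smad3 was lower than in liver (-0.87 ± 0.12), lung (-1.70 ± 0.12) and bone marrow (-0.56 ± 0.12). Against bone marrow, Smad3 was at -0.02 ± 0.12 when T cell scaled. Ski was lower than in lymph node (-0.77 ± 0.08) and lung (-0.59 ± 0.08). Skil was lower than in lymph node (-0.80 ± 0.12), liver (-0.62 ± 0.12) and lung (-1.25 ± 0.12), and higher than in bone marrow (0.84 ± 0.12). Smad7 passed against lymph node (-0.60 ± 0.21, adjusted p = 0.0339), lung (-0.67 ± 0.21, adjusted p = 0.017) and bone marrow (0.66 ± 0.21, adjusted p = 0.0243), and each of these calls was lost when some single library was left out, with adjusted p up to 0.114, 0.065 and 0.0971.

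Much of this changed when T cell scaled, as the T cell genes themselves were lower in blood. The median over all tested genes then moved to 0.74 against spleen, 0.76 against lymph node, 0.86 against liver, 0.67 against lung and 0.34 against bone marrow, so that most genes read as higher in blood. Against spleen all 10 genes were then higher in blood (55.6% of all genes), against lymph node 9 (58.2%), against liver 8 with 1 lower (61.9% and 4.65%), against lung 4 with 3 lower (52.8% and 7.26%), and against bone marrow 9 (34.1%). Tgfb1, Tgfbr1, Tgfbr3 and Furin were higher in blood than in all 5 organs on this scale, as were 25.9% of all genes. Lower in blood than in lung on both scales were Lrrc32 (-2.08 ± 0.08 when T cell scaled, adjusted p = 3.56e-12), Smad3 (-1.04 ± 0.12, adjusted p = 2.49e-06) and Skil (-0.58 ± 0.12, adjusted p = 0.00077). Lrrc32 was also lower than in liver on both scales, at -1.16 ± 0.07 and -0.23 ± 0.08 (adjusted p = 3.25e-09 and 0.0161), while against lymph node its -1.16 ± 0.07 became -0.02 ± 0.08. The direction of Lrrc32 against spleen, of Tgfbr1, Tgfbr2, Smad7, Ski and Skil against lymph node, of Smad3 and Skil against liver, and of Tgfbr2, Ski and Furin against lung turned with the scale, each having passed the test on TPM.

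**Figure D3:**
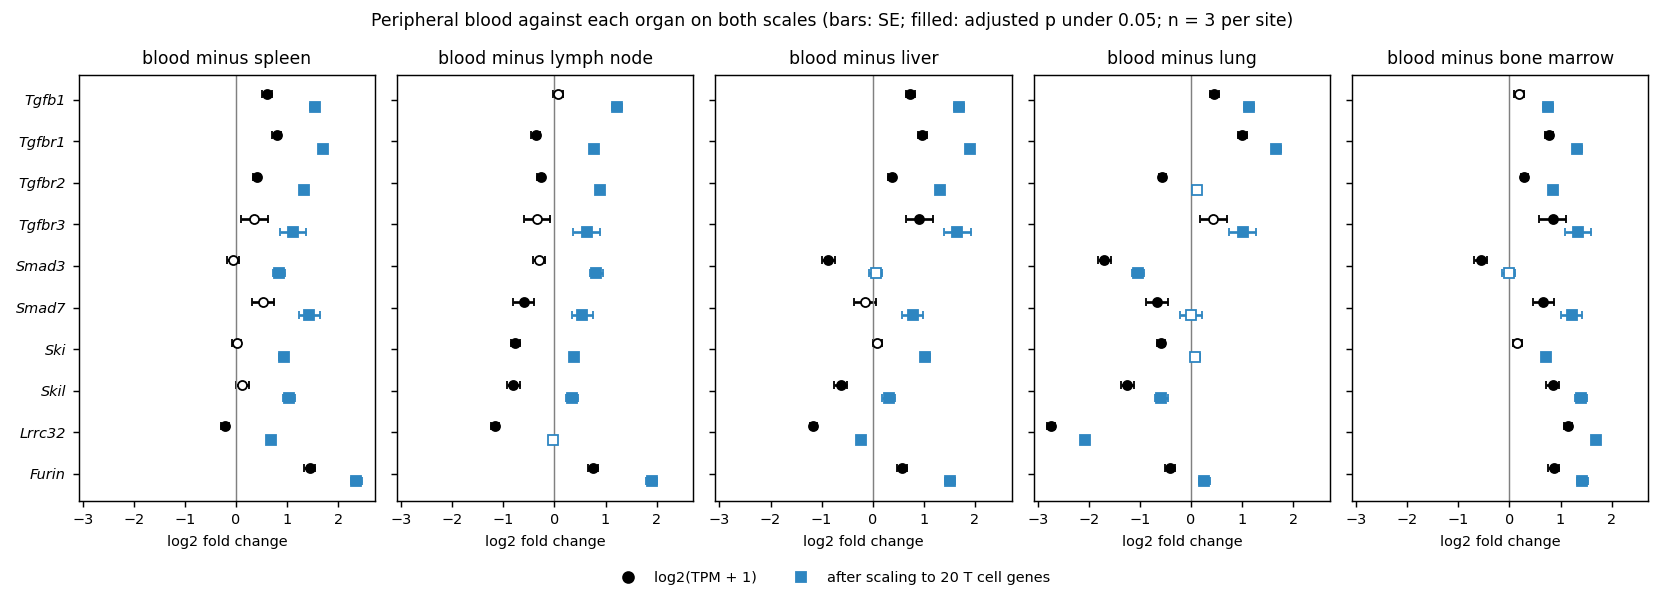
Log2 fold change, peripheral blood minus each organ (horizontal axes), for the 10 genes, from TPM (black circles) and after T cell scaling (blue squares); bars are SE, filled symbols passed adjusted p under 0.05, n = 3 per site. All squares lie to the right of their circles, and Lrrc32, Smad3 and Skil against lung stay left of 0 on both scales.

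Ratios of a pair of genes within a library do not depend on how the library was scaled. Tgfbr1 ran at 0.519 ± 0.005 (SD, n = 3) of Tgfbr2 in lymph node and 0.483 ± 0.019 in blood, but at 0.159 ± 0.011 in lung, and all 3 lung libraries (0.148 to 0.170) were below every other library. Lrrc32 ran at 1.91 ± 0.36 of Tgfb1 in lung, 0.767 ± 0.113 in liver, 0.479 ± 0.011 in lymph node, 0.359 ± 0.030 in spleen, 0.201 ± 0.002 in blood and 0.101 ± 0.007 in bone marrow, with no overlap between any sites. Smad3 exceeded its inhibitor Smad7 in bone marrow (1.16 to 1.29 in the 3 libraries), was level with it in lung (1.05 ± 0.07) and lay below it in blood (0.505 ± 0.062) and lymph node (0.410 ± 0.044), while the 3 liver libraries ranged from 0.511 to 1.23. Skil exceeded Ski on average in liver (1.14 ± 0.12) and lung (1.11 ± 0.21), and ran at 0.421 ± 0.025 of Ski in bone marrow. These are ratios of RNA summed over all cells of a library, and no test was run on them.

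**Figure D4:**
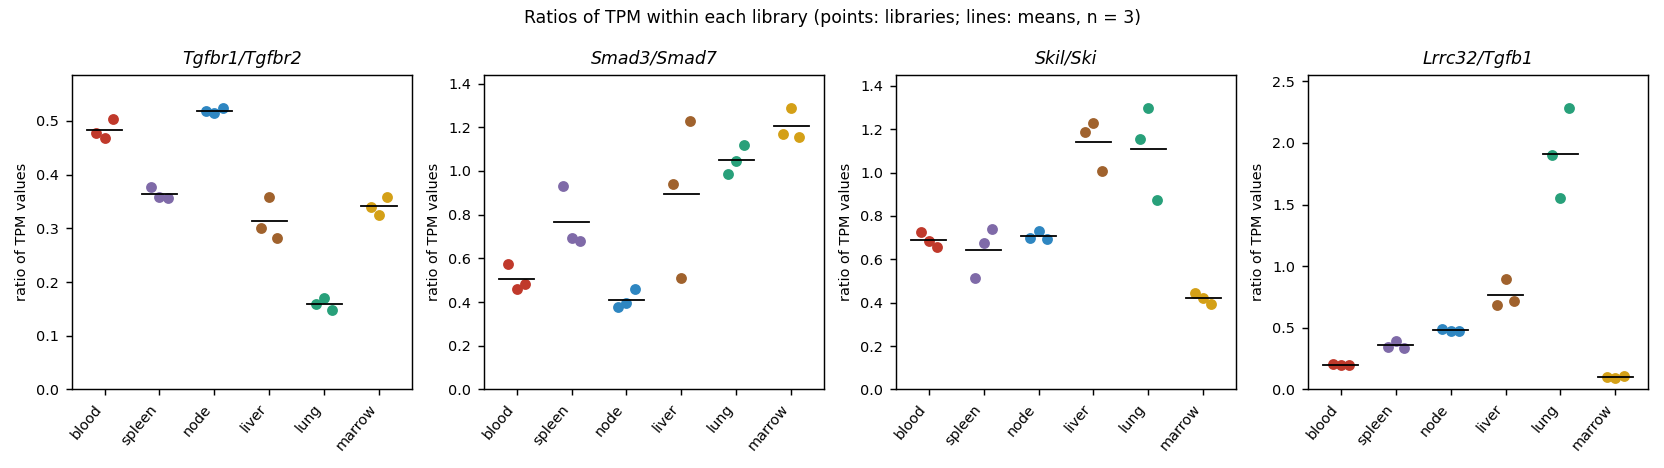
Ratio of TPM of 2 genes within each library (vertical axes, linear, from 0); each point is a library and each line the mean of 3. Tgfbr1 over Tgfbr2 is lowest in lung (mean 0.159), and Lrrc32 over Tgfb1 falls from 1.91 in lung to 0.101 in bone marrow without overlap between sites.

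The wider pathway was read from 53 other genes in 4 lists, of which 46 had a mean of at least 1 TPM somewhere and were tested, and 43 of those 46 differed among sites, a test that 68.0% of all genes passed. Against spleen, 23 of the 46 were higher and 6 lower in blood (20.1% and 15.3% of all genes), and against lymph node 14 and 8 (16.4% and 21.0%). Against liver 15 were higher and 15 lower (23.3% and 16.1%), against lung 17 and 17 (26.4% and 17.3%), and against bone marrow 11 and 7 (13.0% and 18.8%). When T cell scaled, 34, 35, 25, 24 and 25 of the 46 were higher, in the same order, where 55.6%, 58.2%, 61.9%, 52.8% and 34.1% of all genes were. On that scale 2, 4, 6, 12 and 3 of the 46 were lower. Of all genes, 4.65% were lower against liver and 7.26% against lung. The median log2 difference of the 46 genes in blood lay between -0.08 and 0.39 on the TPM scale, against -0.15 to 0.12 over all tested genes.

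Ltbp1, Nrros and Itgb8, from the list of ligands, latency and activation, set blood apart from every organ. On TPM, 7.49% of all genes were higher and 3.44% lower in blood than in all 5 organs. When T cell scaled, 25.9% were higher. Ltbp1, which ties the latent complex to the matrix, measured 20.6, 21.3 and 20.7 TPM in the blood libraries and at most 1.38 TPM in the other 15. Nrros, which anchors latent TGF-beta on myeloid cells as GARP does on Treg cells, measured 107, 121 and 115 TPM in blood, 61.0 to 63.8 in bone marrow and 33.0 to 53.0 elsewhere. Itgb8, whose integrin releases TGF-beta from GARP on Treg cells, went the other way, at 1.09 to 1.61 TPM in blood against 4.6 to 12.1 in the organs. Ltbp1, Nrros and Itgb8 passed against each of the 5 organs on both scales. On TPM the log2 differences were 3.97 or more for Ltbp1, 0.87 or more for Nrros and -1.31 to -2.39 for Itgb8. Tgfb2 of the same list, at a mean of only 4.26 TPM in blood, was also higher there than in all 5 organs on both scales.

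Itgav and Thbs1, of the same list, followed other orders. Itgav, the alpha chain that pairs with Itgb8, was highest in lung at 105, 119.7 and 107 TPM, against 45.5 to 64.3 in liver and 18.1 to 28.5 elsewhere, and lung exceeded all 5 other sites on both scales. Thbs1, an activator of latent TGF-beta, measured 90.5 to 92.5 TPM in blood, 68.0 to 71.3 in lung and 116 to 119.8 in bone marrow, and at most 1.06 in spleen, 0.17 in lymph node and, apart from 6.73 in 1 liver library, 0.22 in liver. Blood, bone marrow and lung were also the 3 sites with the highest myeloid sums, from 1668 TPM upwards. In lung, Nrros had a mean of 40.1 TPM, no higher than in liver (40.9), spleen (41.2) or lymph node (44.9). The part of myeloid RNA in Thbs1 and Nrros was not tested. Ltbp1 had a mean of 20.9 TPM in blood and 0.393 TPM in bone marrow. Single myeloid genes differed in which of these sites was higher. S100a9 had means of 9048 TPM in blood and 20702 in bone marrow, and Csf1r of 206 and 24.8. The platelet sum was 2172 to 2203 TPM in blood and 72.2 to 85.6 in bone marrow. The part of platelet or myeloid RNA in Ltbp1 was not tested.

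Among receptors and Smads, Acvr2a and Zfyve9 stood out. Acvr2a, an activin type II receptor, measured 25.2, 26.2 and 23.9 TPM in lung, 9.95 to 11.2 in liver and 1.90 to 8.13 elsewhere, and lung was above and spleen below all other sites on both scales. Zfyve9 (SARA), which brings Smad2 and Smad3 to the receptor, measured 11.8 to 13.5 TPM in blood and at most 1.86 elsewhere, and was higher in blood than in all 5 organs on both scales. The platelet, cytotoxic and B cell sums were also highest in blood, at 2172 to 2203, 551 to 609 and 525 to 546 TPM. Within the cytotoxic list, Gzma, Nkg7, Klrd1 and Ncr1 had their highest means in blood, while Cd8a and Cd8b1 had theirs in lymph node. The part of platelet, cytotoxic or B cell RNA in Zfyve9 was not tested. Smad2 and Smad4 were steadier than Smad3 on TPM: their site means ran from 28.7 to 41.9 TPM and from 39.7 to 74.8 TPM. Smurf2, a ligase that removes receptors and Smads, was lowest in lung (11.5 to 17.6 TPM) and Tgif1, a Smad co-repressor, was high in lung (246 to 328 TPM) and liver (224 to 269) against 36.0 to 81.0 elsewhere. Against lung, 5 of 17 tested Smad genes and regulators were higher and 5 lower in blood, where 26.4% and 17.3% of all genes were.

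Of the 9 genes that TGF-beta is known to induce or repress, none followed a single order of sites. Itgae (CD103) measured 101, 107 and 104 TPM in lymph node, 48.5 to 50.4 in bone marrow, 39.8 to 47.3 in liver, 36.6 to 43.3 in lung, 14.3 to 19.7 in spleen and 7.33, 6.39 and 5.40 in blood, and was lowest in blood and highest in lymph node on both scales. Pmepa1, a feedback inhibitor, was highest in lung (42.2, 28.8 and 49.0 TPM) and lowest in blood (4.99, 7.44 and 8.52), although blood passed only against lymph node, liver and lung, and when T cell scaled only against lung. Ldlrad4, a related inhibitor, lay at 40.5 to 46.9 TPM in lung and 38.7 to 40.2 in lymph node, and at 11.0 to 13.2 in blood.

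The Id genes, which TGF-beta lowers in many cells, moved in opposite ways. Id2 was highest in lung (292 to 341 TPM) and liver (206 to 222) and lowest in lymph node (38.6 to 45.1). Id3 was highest in lymph node (78.8 to 81.9 TPM) and spleen (64.9 to 67.9) and lowest in lung (at most 24.2). Id1 and Tgfbi were both highest in blood and bone marrow, Tgfbi at 218 to 235 TPM in blood, 42.9 to 44.8 in bone marrow and at most 22.6 elsewhere, Id1 at means of 18.8 and 14.2 TPM there and at most 9.76 TPM in any other library. Tgfbi is a gene of monocytes too, and the myeloid sums given above were high in the same sites; their part was not tested. Against lung, 6 of the 9 target genes were lower and 3 higher in blood on both scales, where 17.3% and 26.4% of all genes were on TPM and 7.26% and 52.8% when T cell scaled.

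**Figure D5:**
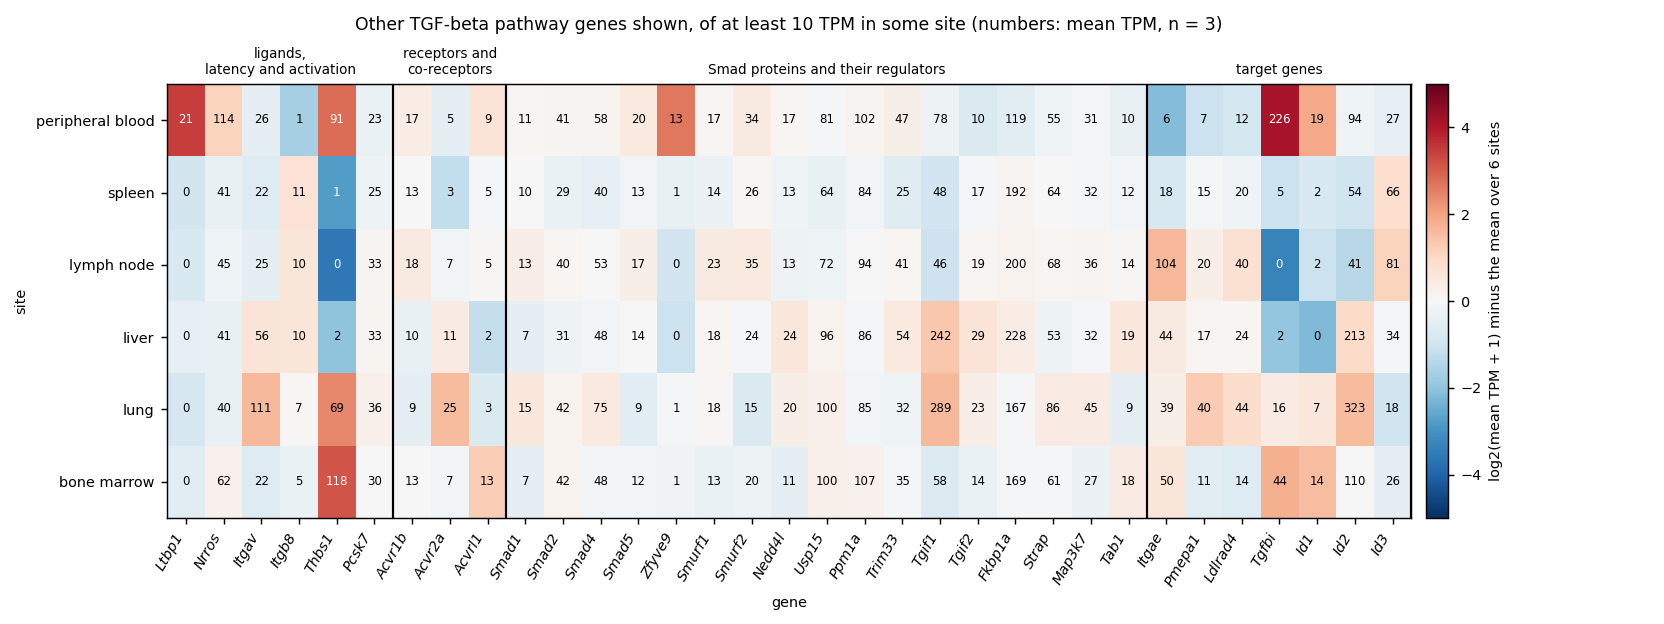
Mean TPM (numbers, n = 3) of 33 other pathway genes with at least 10 TPM in some site; the colour gives log2(mean TPM + 1) minus the gene's mean over the 6 sites, and vertical lines part the 4 lists. Within their columns, Ltbp1, Zfyve9 and Tgfbi are reddest in blood, Itgae and Itgb8 are bluest there, and Itgav, Acvr2a, Pmepa1 and Id2 are reddest in lung.

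Across the 18 libraries the 10 genes formed no single block. The pair with the highest correlation of log2(TPM + 1) was Skil and Lrrc32 (r = 0.95), followed by Smad7 and Skil (r = 0.86) and Tgfbr2 and Ski (r = 0.85). The lowest was Tgfbr1 and Smad3 (r = -0.58), then Tgfb1 and Smad3 (r = -0.34) and Tgfb1 and Lrrc32 (r = -0.33). These values describe 18 libraries from 6 sites, share each library's scaling and carry no test.

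The genes most like each member over the same 18 libraries, among all genes of at least 10 TPM in some site, were as follows. Lrrc32 and Skil had like neighbours: Adamts6 (r = 0.97), Gbp3 (0.96) and Jarid2 (0.96) for Lrrc32, and Jarid2 (0.94), Adamts6 (0.94) and Rnf145 (0.93) for Skil. Smad3 ran closest to Csrp1 and Sqstm1 (both r = 0.97) and Actg1 (0.97), and Furin to Neat1 (0.96), Tpm4 (0.96) and Spag9 (0.95). Tgfbr1 ran closest to Arl4c (r = 0.95), Tcf20 (0.92) and Dtx3l (0.90), and Tgfbr2 to Foxp1, Mknk2 and Grap2 (all r = 0.94). Ski was nearest to Foxo1 (r = 0.93), Lef1 and Spsb1 (both 0.92), Tgfb1 to Fgd3 (0.92), Eif4ebp2 (0.91) and Scarb2 (0.90), Tgfbr3 to Pus3 (0.91), Kcnip2 (0.86) and Igfbp4 (0.85), and Smad7 to Tet2, Ndfip2 and Dmtf1 (all 0.86).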

How the data were processed

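The authors deposited 1 table of TPM per library. The submitters' processing notes name STAR, RSEM and the mm10 build, without versions, roles or order; the annotation, filters and use of strand are not given in the sources used here. Tables summed to between 999999.27 and 1000000.62 TPM, and no pair was identical. Symbols and positions came from GENCODE M21, which named 55141 of 55487 IDs.

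The 16694 genes whose mean reached 1 TPM in any site were compared on log2(TPM + 1), a scale that understates the change of low genes, with limma 3.58.1 (R 4.3.3; eBayes with trend and robust variances): 1 model over 18 libraries, a mean per site, no covariate, an F test and 15 pair contrasts, Benjamini-Hochberg adjustment over all tested genes, and calls at adjusted p under 0.05. The code was tested on simulated data. Groups came from the labels. Alternatives were T cell scaling, median-of-ratios scaling, quantile normalization, removal of abundant RNA, a pseudocount of 0.1, no filter and a minimum of 5 TPM. Further ones were library weights, a replicate block, fits of only the groups compared, and leaving out each library. Removal of abundant RNA dropped mitochondrial, ribosomal protein and haemoglobin genes and the listed marker genes of other cells. All other RNA of those cells stayed in.

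All 10 genes were named, other pathway genes from 10 TPM (1 of them, kept in the counts, is not reported here by name; Tgfb2 and Tgfb3, below 10 TPM, were added after their values were seen), and for each gene the 3 with the highest Pearson r, leaving out unnamed gene models and receptor segments. The members and lists were chosen with earlier results of these data known, so their counts beside shares of all genes are descriptions only. Figures used matplotlib 3.10.9.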

Additional observations from a re-analysis of the deposited data

How the results depend on the processing

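Over the alternatives tried, all 10 genes passed the F test each time. The genes passing in blood were 5 against spleen, 7 against lymph node, 8 against liver, 9 against lung and 8 against bone marrow, and the 5 against spleen became 10 with T cell scaling, because that setting moves the whole distribution. The counts of the other blood contrasts, the 67 organ pair combinations and the combinations of other pathway genes stayed within 1.5 times. These counts take both directions together and do not show a change of direction. Against lymph node, 1 higher and 6 lower on TPM became 9 higher when T cell scaled. Leaving out 1 library at a time gave 4 to 5 genes against spleen, 6 to 7 against lymph node, 8 to 9 against liver, 8 to 10 against lung, 6 to 8 against bone marrow, 63 to 72 organ pair combinations and 110 (lowest) to 140 (highest) combinations of other pathway genes.

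The sign of 20 single values turned. With T cell scaling these were, blood minus spleen, Smad3 (0.84) and Lrrc32 (0.69); blood minus lymph node, Tgfbr1 (0.77), Tgfbr2 (0.88), Tgfbr3 (0.63), Smad3 (0.82), Smad7 (0.54), Ski (0.38) and Skil (0.34); blood minus liver, Smad3 (0.058), Smad7 (0.79) and Skil (0.31); and blood minus lung, Tgfbr2 (0.11), Ski (0.0832) and Furin (0.26). Ski against spleen was -0.0575 with quantile normalization and -0.0794 with abundant RNA removed, and -0.0384 (without spleen replicate 2) to 0.0626 with 1 library left out. Against liver, leaving out 1 library gave -0.496 to 0.0959 for Smad7 and -0.0105 to 0.155 for Ski, turning without liver replicate 2. Among called organ pairs, 3 turned with T cell scaling (Tgfb1 lymph node minus lung -0.09, Tgfbr2 lymph node minus bone marrow -0.04, Furin liver minus bone marrow -0.09) and 1 with quantile normalization (Tgfbr1 lung minus bone marrow 0.04). The cause was not tested.

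Replicate numbers did not pair libraries: the deviations of the 45 same-number pairs correlated at -0.0345 to 0.0302, and none was over 0.1. With the replicate block, the counts in blood were 5, 7, 8, 9 and 8 and the organ pairs 65.

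Depth is unknown, so the precision of low values such as those of Tgfbr3 rests on 3 libraries per site.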
